A study of Mus musculus with 4 samples.

Results

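Amacrine cells are inhibitory interneurons of the inner retina, and the 9 genes described here are used to recognise them: the transcription factors Pax6, Tfap2a and Tfap2b, the GABA genes Gad1, Gad2 and Slc32a1, the glycine transporter gene Slc6a9, the choline acetyltransferase gene Chat and the calretinin gene Calb2. They were taken by symbol from a written list, 9 of the 21828 genes in the tables, and all 9 had an accepted value in all 4 libraries. Tfap2a and Tfap2b were listed under their older symbols Tcfap2a and Tcfap2b and were matched through RefSeq synonyms. Not every gene of the list marks an inhibitory transmitter, since Chat makes the excitatory transmitter acetylcholine and Calb2 encodes a calcium buffer.

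Most amacrine cells release either GABA or glycine onto bipolar cell terminals, ganglion cells and one another, and so shape the timing and spatial extent of the signals that leave the retina. GABA is made from glutamate by the decarboxylases that Gad1 and Gad2 encode and is loaded into vesicles by the transporter that Slc32a1 encodes, which also loads glycine, while the membrane transporter encoded by Slc6a9 supplies glycinergic cells with glycine. Amacrine cells are born early in retinal development, Pax6 and the AP-2 factors Tfap2a and Tfap2b stay on in them, and the starburst subtype makes both acetylcholine and GABA. Pax6 is also known from retinal progenitors, ganglion cells, horizontal cells and Müller glia, and Calb2 from ganglion cells, so that neither is particular to amacrine cells.

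Poly(A) RNA was sequenced from mouse retina at postnatal day 12, on the slc:ICR background, after dissociated cells had been stained for Cd73 (the surface enzyme encoded by Nt5e, which rods and their precursors carry) and sorted into a positive (Cd73P) and a negative (Cd73N) fraction. Each fraction came from wild-type retina, taken from normal littermates, and from retina-specific Ezh2 conditional knockout retina (Ezh2-CKO), in which a floxed Ezh2 allele meets Dkk3-Cre, a driver active in retinal progenitors from early in embryonic life. Ezh2 encodes the methyltransferase of the Polycomb complex PRC2 that places H3K27me3, a mark of silenced genes. There was 1 library for each of the 4 groups, the number of retinas behind each library was not given in the sources used here, and no difference below has a replicate check or a p-value.

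The libraries are called WT and CKO-labelled here, by their labels alone. The targeted gene Ezh2 measured 14.1 FPKM (fragment counts scaled for exon length and library total) in WT Cd73N, 15.9 in CKO-labelled Cd73N, 5.38 in WT Cd73P and 3.45 in CKO-labelled Cd73P. It was therefore lower with the CKO label in Cd73P but not in Cd73N, which goes against that label, although a gene-level value cannot show the loss of a floxed exon. Nt5e, at 0.844 and 0.609 FPKM in the Cd73N pair against 125 and 123 in the Cd73P pair, followed the sort. Depth relative to WT Cd73N, inferred from the width of the deposited FPKM bounds, lay between 1 and 1.17, and between 10322 and 12710 genes reached an FPKM of 1.

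Measured against marker lists of other retinal cells, the list of 9 amacrine genes was at a low level. Its median was 0.813 FPKM in WT Cd73N, 1.48 in CKO-labelled Cd73N, 0.519 in WT Cd73P and 0.123 in CKO-labelled Cd73P. In the WT Cd73N library, where amacrine cells belong, 5 of the 9 genes were below 1 FPKM, whereas the median of 9 cone genes was 294 FPKM, that of 11 bipolar genes 120 FPKM and that of 12 Müller glia genes 75.5 FPKM. The list median there was nearer to those of 11 ganglion cell genes, at 1.67 FPKM, and 4 horizontal cell genes, at 0.111 FPKM. Such a median also depends on the genes chosen. In the same library it was 0.738 FPKM for 20 further amacrine transcription factor genes and 2.89 FPKM for 10 other amacrine protein genes, described below. In bulk samples, fewer cells of a type and less RNA per cell cannot be told apart.

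**Figure D1:**
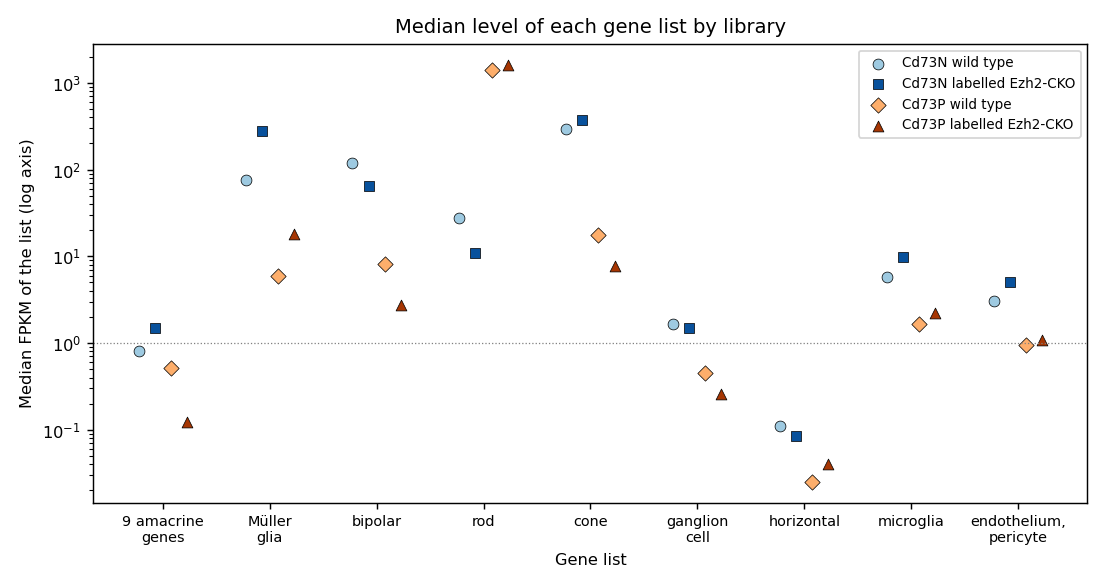
Median FPKM (log axis) of the 9 amacrine genes and of marker lists for 8 other retinal cell types in each of the 4 libraries, with a dotted line at 1 FPKM; the rod list is shown over the 9 genes accepted in every library. The amacrine medians lie between 0.123 and 1.48 FPKM, below those of Müller glia, bipolar cells, rods, cones and microglia in the same library.

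Among the 3 transcription factor genes, Pax6 was the most abundant and had the widest spread between libraries. It measured 20.4 FPKM ± 0.519 (counting SE) in WT Cd73N, 63.5 ± 0.823 in CKO-labelled Cd73N, 2.51 ± 0.205 in WT Cd73P and 2.69 ± 0.186 in CKO-labelled Cd73P. Both Cd73N levels were well above both Cd73P levels, and the 2 Cd73P levels lay within counting error of each other. In the CKO-labelled Cd73N library, 94.8% of all genes were lower than Pax6, against 82.6% in WT Cd73N. Each Cd73N value exceeded the upper bound deposited with it, at 20.2 and 60.7 FPKM, so that the counting errors are approximate.

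The AP-2 factor genes, which act in amacrine cell differentiation, were far lower. Tfap2b measured 0.683 FPKM in WT Cd73N, 1.01 in CKO-labelled Cd73N, 0.334 in WT Cd73P and 0.123 in CKO-labelled Cd73P. This order, with both Cd73N libraries above both Cd73P libraries, was the same as that of Gad2 and Slc32a1. Tfap2a measured 0.114, 0.184, 0.189 and 0.0797 FPKM in the same order of libraries, on 9.35 to 29.0 fragments as implied by its bounds. The bounds of Tfap2a overlapped for each pair of libraries, and the gene shares 111 exon bases with the RNA Gm16989 on the opposite strand, whose reads these strandless libraries cannot separate.

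The GABA genes were detected in every library, but at or below 1.74 FPKM. Gad1, which encodes the decarboxylase found throughout the cell, measured 0.798 FPKM ± 0.0802 (counting SE) in WT Cd73N, 1.74 ± 0.130 in CKO-labelled Cd73N, 1.40 ± 0.116 in WT Cd73P and 0.215 ± 0.0358 in CKO-labelled Cd73P. Its lowest and highest values thus both came from CKO-labelled libraries, and it was the GABA gene that stood higher in Cd73P than in Cd73N of wild type. The listed locus of Gad1 shares 1194 bases with that of the RNA 1500002O10Rik on the opposite strand. In the GENCODE annotation the 2 genes share 0 exon bases, and the part of 1500002O10Rik in the Gad1 values was not tested. Gad2, the decarboxylase of nerve terminals, measured 1.05 FPKM ± 0.0710, 1.48 ± 0.0826, 0.283 ± 0.0329 and 0.0489 ± 0.0131 in the same order. The deposited bounds of Gad2 did not overlap between any pair of libraries, and the CKO-labelled Cd73P value rested on an implied 14.0 fragments. Slc32a1, the vesicular transporter gene, measured 0.813 FPKM ± 0.0904, 0.853 ± 0.0885, 0.519 ± 0.0680 and 0.105 ± 0.0263. Its Cd73N libraries lay within counting error of each other, its CKO-labelled Cd73P library was the lowest, and 697 of its exon bases are shared with the antisense RNA Gm14205.

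The 3 GABA genes all lie on chromosome 2 but far apart, on mm9 at chr2:70400221-70440069 for Gad1, chr2:22477847-22549397 for Gad2 and chr2:158436494-158441483 for Slc32a1, all on the plus strand and all protein coding. Pax6 lies on the same chromosome, at chr2:105516602-105537226. The other genes lie at chr13:40811044-40829192 (Tfap2a, minus strand), chr1:19198995-19228815 (Tfap2b, plus strand), chr14:33221389-33279095 (Chat, minus strand) and chr8:112666438-112692106 (Calb2, minus strand). The 3 GABA genes serve the same transmitter, and each had its lowest level in CKO-labelled Cd73P, where Gad1 alone passed the threshold used below. That low was not particular to them, since every gene of the 9 but Pax6 and Slc6a9 had it. The 250 bases before the RefSeq start sites of the 3 GABA genes are shown here, read 5′ to 3′ on the plus strand of GRCm38.p6, at chr2:70561879-70562128 for Gad1, chr2:22622077-22622326 for Gad2 and chr2:158610508-158610757 for Slc32a1. The letters GCCNNNGGC, the palindromic core to which AP-2 factors such as Tfap2a and Tfap2b bind, were searched on both strands and are in capitals.
Gad1: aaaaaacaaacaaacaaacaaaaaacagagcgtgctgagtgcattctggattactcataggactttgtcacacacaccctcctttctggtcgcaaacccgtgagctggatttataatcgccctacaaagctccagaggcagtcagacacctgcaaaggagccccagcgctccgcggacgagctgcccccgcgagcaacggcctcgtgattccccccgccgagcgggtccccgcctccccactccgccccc
Gad2: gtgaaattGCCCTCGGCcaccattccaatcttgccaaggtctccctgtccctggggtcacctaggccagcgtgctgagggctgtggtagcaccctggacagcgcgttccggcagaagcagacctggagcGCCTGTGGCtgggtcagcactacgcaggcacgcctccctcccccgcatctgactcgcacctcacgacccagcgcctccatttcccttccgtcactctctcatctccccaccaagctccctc
Slc32a1: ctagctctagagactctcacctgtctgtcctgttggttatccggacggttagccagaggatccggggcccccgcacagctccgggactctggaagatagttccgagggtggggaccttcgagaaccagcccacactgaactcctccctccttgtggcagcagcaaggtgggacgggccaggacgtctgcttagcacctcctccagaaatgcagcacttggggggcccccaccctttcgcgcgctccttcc
The Gad2 window held 2 matches and the Gad1 and Slc32a1 windows 0. RefSeq promoters were found for 8 of the 9 genes (12 promoters in all, none for Calb2), and 16.7% of the 12 held the letters against 13.7% of 32851 promoters of the same length. The windows were rich in CpG, with 17 in Gad1, 13 in Gad2 and 12 in Slc32a1, against a median of 6 over all promoters. This was not particular to the GABA genes, since the median of the 12 promoters was 10 and both Pax6 windows held 15.

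The glycine transporter gene Slc6a9 was higher in the rod fraction than in the other cells, in both genotypes. It measured 6.46 FPKM ± 0.246 (counting SE) in WT Cd73N, 8.96 ± 0.275 in CKO-labelled Cd73N, 24.1 ± 0.497 in WT Cd73P and 21.4 ± 0.466 in CKO-labelled Cd73P. Both Cd73P libraries were above both Cd73N libraries, so that Slc6a9 values were not confined to the fraction where amacrine cells belong. Slc6a9 lies at chr4:117507863-117541910 on the plus strand of mm9, and in the GENCODE annotation 1429 of its exon bases are shared with Ccdc24 on the opposite strand, while the loci listed in the files share 44 bases. Ccdc24 was also higher in Cd73P, at 10.3, 11.3, 41.8 and 63.5 FPKM in the same order of libraries. Its reads and those of Slc6a9 cannot be told apart over the shared bases, and the part of Ccdc24 in the Slc6a9 values was not tested. Between genotypes in Cd73P the neighbours went apart, with Ccdc24 1.52-fold higher and Slc6a9 1.12-fold lower in the CKO-labelled library.

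Chat was at background. It was listed at 0.0172 FPKM in WT Cd73N, 0.00692 in CKO-labelled Cd73N, 0.0178 in WT Cd73P and 0.00169 in CKO-labelled Cd73P, with a lower bound of 0 in all 4 libraries. The highest upper bound was 0.0465 FPKM, and no fold is given for it. The choline transporter gene Slc5a7 and the vesicular acetylcholine transporter gene Slc18a3, which cholinergic cells also need, were at most 0.0217 and 0.0327 FPKM. Chat RNA was thus not detectable at this depth in either fraction or genotype.

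Calb2, whose calretinin protein labels amacrine and ganglion cells, measured 3.04 FPKM ± 0.279 (counting SE) in WT Cd73N, 1.98 ± 0.233 in CKO-labelled Cd73N, 0.532 ± 0.103 in WT Cd73P and 0.274 ± 0.0625 in CKO-labelled Cd73P. Both Cd73N levels were above both Cd73P levels, and the bounds of the genotypes overlapped within each fraction. It was the one gene of the 9 that was lower with the CKO label in both fractions beyond 2 counting SE.

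**Figure D2:**
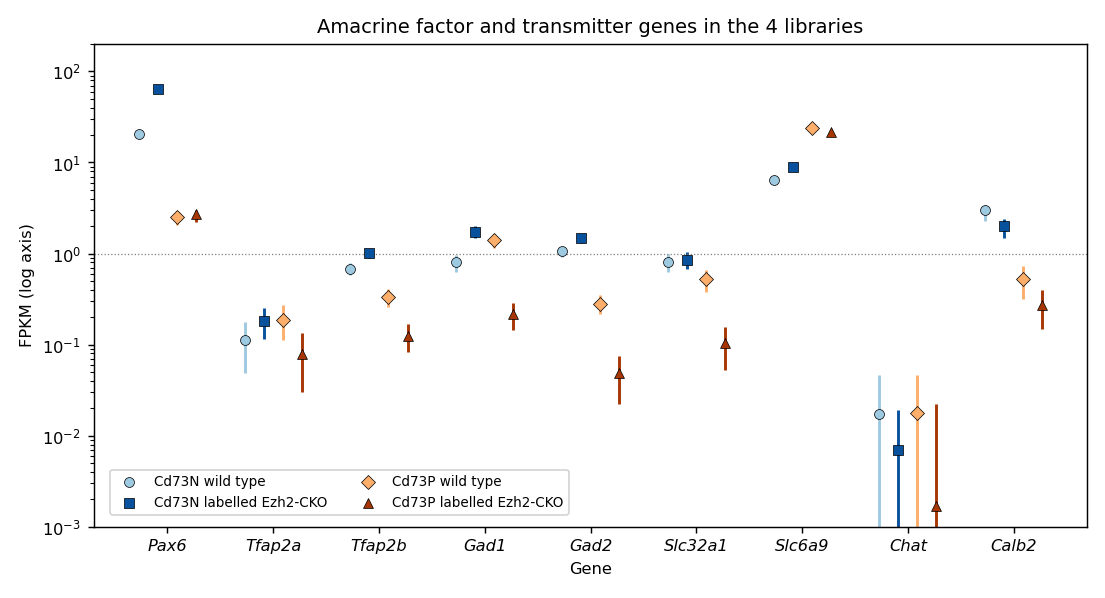
FPKM (log axis) of the 9 genes in the 4 libraries, with the deposited lower and upper bounds as bars and a dotted line at 1 FPKM. Pax6 and Slc6a9 are the genes above 5 FPKM in any library, Chat has bounds that reach 0 throughout, and the CKO-labelled Cd73P library holds the lowest value of every gene but Pax6 and Slc6a9.

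To ask how far each gene was restricted to the cells outside the rod fraction, levels were compared between Cd73P and Cd73N within each genotype. Ratios are given as log2 of (FPKM + 1), which understates differences of genes near or below 1 FPKM, and a gene was counted as higher or lower at 1.5-fold on that scale, the threshold of the study. In wild type, 3 of the 9 genes were lower in Cd73P (27.9% of 21701 genes were) and 1 was higher (9.07% of all genes). Pax6 had a log2 ratio of -2.61 ± 0.091 (counting SE), Calb2 of -1.40 ± 0.14, Gad2 of -0.68 ± 0.062 and Slc6a9, the higher one, of 1.75 ± 0.055. Gad1, at 0.42 ± 0.095, was also counted as higher when the libraries were scaled to each other by the median ratio or the FPKM sum. The median over the 9 genes was -0.26, beside -0.05 over all genes and -0.47 over genes with an FPKM of at least 1. Of the genes at that level 45.9% were lower in Cd73P, and the 5 members among them had a median of -0.68. The minimum had to be met in either library of a pair. Gad2 and Calb2 met it in Cd73N alone and Gad1 in Cd73P alone, so that this median depends in part on the selection. Between the CKO-labelled libraries, 6 of the 9 were lower in Cd73P (29.1% of 21700 genes) and Slc6a9 alone was higher (8.4%), with a median of -0.84 beside -0.09. Over genes with an FPKM of at least 1 in either library, 45.6% were lower there and the median was -0.47, beside -1.20 over the 6 members at that level. Of these members, Tfap2b, Gad1, Gad2 and Calb2 met the minimum in Cd73N alone. The selection thus favours a median below 0, and nothing is concluded from it. Pax6, Calb2 and Gad2 were joined there by Gad1 at -1.17 ± 0.081, Tfap2b at -0.84 ± 0.050 and Slc32a1 at -0.75 ± 0.077.

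Expressed without a pseudocount, the Cd73P level of Pax6 was 12.3% of its Cd73N level in wild type and 4.23% between the CKO-labelled libraries. For Gad2 these shares were 26.8% and 3.31%, for Slc32a1 63.8% and 12.3%, for Tfap2b 48.9% and 12.2%, and for Calb2 17.5% and 13.8%. Gad1 went from 176% to 12.4%, the widest change of the list, and Slc6a9 from 373% to 239%. For comparison, the median share of the bipolar genes was 4.92% in wild type and 2.02% between the CKO-labelled libraries, that of the cone genes 5.94% and 2.08%, and that of the Müller glia genes 8.34% and 3.74%. The medians of 8 microglia genes, at 20.5% and 19.2%, and of 5 ganglion cell genes, at 24.9% and 12.9%, were higher. The share of Pax6 and that of Calb2 in wild type thus lay between the former 3 medians and the latter pair. All these medians were smaller between the CKO-labelled libraries, that of microglia least, and the part of these cell types in the change was not tested. The comparisons between fractions and those between genotypes draw on the same 4 libraries.

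**Figure D3:**
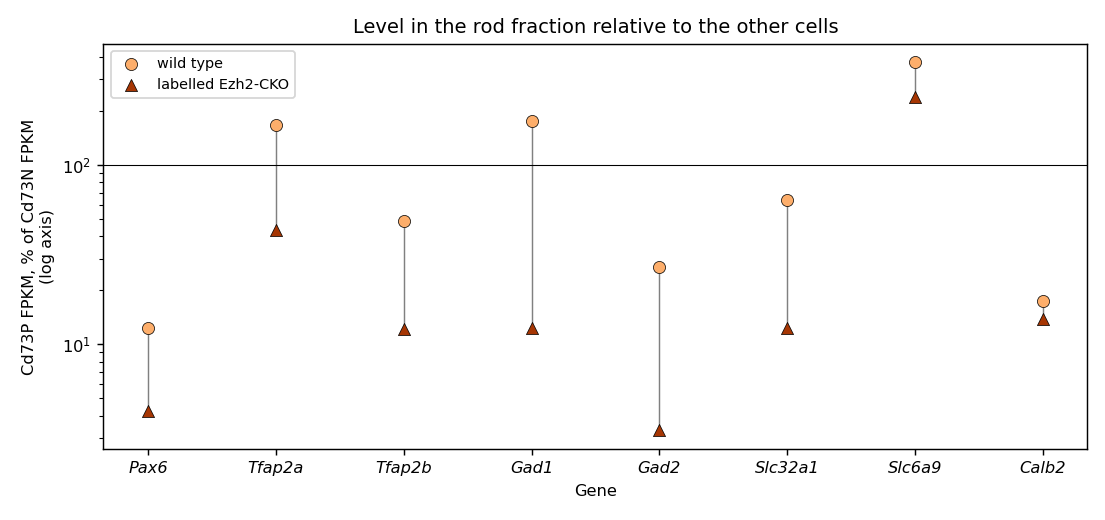
Level in Cd73P as a percent of the level in Cd73N (log axis) for 8 of the 9 genes, with wild type as circles and the CKO-labelled libraries as triangles; Chat is left out because its bounds reach 0. Every triangle lies below its circle, and Gad1 and Tfap2a cross from above to below the line at 100%.

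To ask how the genes differed with Ezh2 genotype among the cells outside the rod fraction, the Cd73N libraries were compared. Here 2 of the 9 genes were higher in the CKO-labelled library (7.18% of 21702 genes were) and 0 were lower (1.71% of all genes). Pax6 had a log2 ratio of 1.59 ± 0.040 (counting SE), a 3.12-fold difference in FPKM with a range of 2.95 to 3.30 at 2 counting SE. Gad1 had a log2 ratio of 0.61 ± 0.094, a 2.18-fold difference in FPKM with a range of 1.70 to 2.80, and with a pseudocount of 5 it was no longer counted. Slc6a9 at 0.42 ± 0.062, Gad2 at 0.27 ± 0.069 and Tfap2b at 0.26 ± 0.062 also lay above 0 by more than 2 counting SE but under the threshold. Slc32a1 lay at 0.03 ± 0.0996 and Tfap2a at 0.09 ± 0.059, both within counting error of 0, and Calb2 at -0.44 ± 0.15. In all, 7 of the 9 were above 0, 2 of them within counting error, beside 45.4% of all genes, and the median was 0.26 beside 0 over all genes.

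Markers of other cell types differed in the same pair of libraries. Each of the 12 Müller glia markers was higher with the CKO label, at a list median of 2.09 on the log2 scale and a summed level of 1355 FPKM in WT and 6173 in the CKO-labelled library. Of 8 microglia genes 4 were higher and of 9 cone genes 3, whereas 8 of 11 bipolar genes were lower (summed levels 2732 and 1481 FPKM). Of 10 rod genes 6 were lower and 3 lay above 0, and their summed levels were close, at 1244 and 1232 FPKM. Ganglion cell genes were higher in 2 and lower in 1 of 11 cases, with Pou4f3 listed at 0 in all 4 libraries, and the 4 horizontal cell genes stayed below 1 FPKM in both. The Pax6 difference thus stood beside a larger difference of the Müller glia list, a cell type that also makes Pax6, and the part of Müller glia in it was not tested.

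In the rod fraction the same comparison was made between the Cd73P libraries. The CKO-labelled library was lower for 1 of the 9 genes past the threshold (2.39% of 21703 genes were lower) and higher for 0 (2.26% of all genes). That gene was Gad1, with a log2 ratio of -0.98 ± 0.082 (counting SE), a 6.51-fold lower FPKM. On the scale without a pseudocount, Gad2 was 5.78-fold lower, Slc32a1 4.94-fold, Tfap2b 2.71-fold, Tfap2a 2.37-fold and Calb2 1.94-fold, and all of them were below 1 FPKM. With a pseudocount of 0.1 in place of 1, these 5 and Gad1 were counted as lower, and with a pseudocount of 5 none was. Their log2 ratios were -0.46 ± 0.073 for Slc32a1, -0.29 ± 0.041 for Gad2, -0.25 ± 0.048 for Tfap2b, -0.27 ± 0.12 for Calb2 and -0.14 ± 0.059 for Tfap2a, each below 0 by more than 2 counting SE. Slc6a9 lay at -0.16 ± 0.041, and Pax6, at 0.07 ± 0.11, was within counting error of 0. Below 0 were 8 of the 9, Chat within counting error, beside 44.8% of all genes and 57.5% of genes with an FPKM of at least 1, and the median was -0.25 beside 0 over all genes.

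Here too markers of other cells differed. With the CKO label in Cd73P, 8 of 11 bipolar genes were lower (summed levels 215 FPKM in WT and 69.9 with the label) and so were 7 of 9 cone genes (332 and 171 FPKM). Müller glia genes were higher in 8 of 12 cases (150 and 294 FPKM). Of 9 rod genes 2 were higher and 7 lay above 0 (14148 and 20031 FPKM). Gad1 was thus lower beside lower bipolar and cone lists and a higher Müller glia list, and the part of these cell types in the Gad1 difference was not tested.

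**Figure D4:**
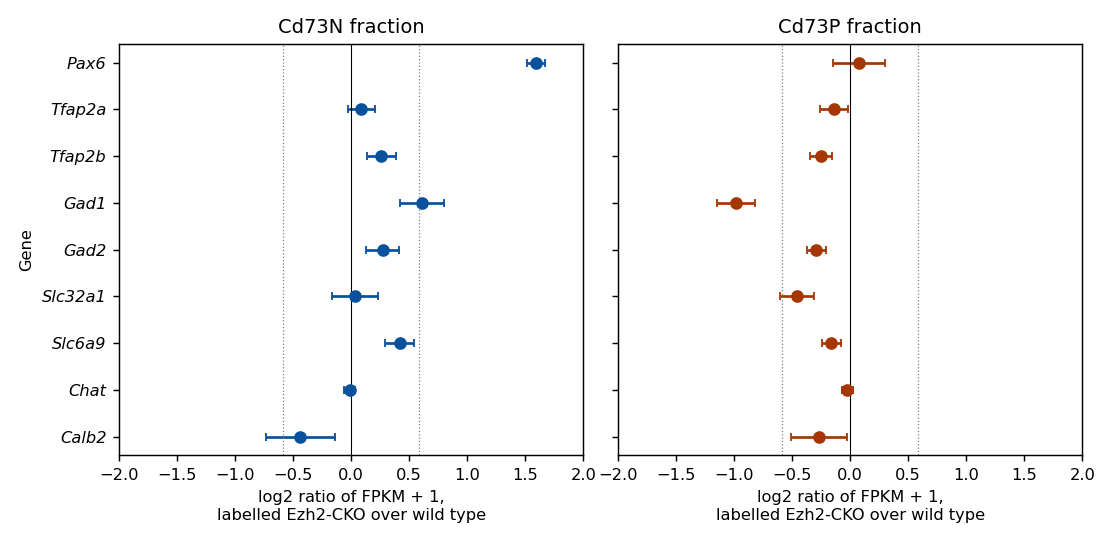
Log2 ratio of FPKM + 1, CKO-labelled library over wild type, for each of the 9 genes in Cd73N (left) and Cd73P (right), with bars of 2 counting SE and dotted lines at 1.5-fold. Pax6 and Gad1 lie beyond the right dotted line in Cd73N, and Gad1 lies beyond the left one in Cd73P.

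Gad1 and Gad2 make the same product, so their FPKM ratio within a library was compared between libraries. Gad1 over Gad2 was 0.757 (0.594 to 0.964 at 2 counting SE) in WT Cd73N and 1.18 (0.977 to 1.42) in CKO-labelled Cd73N. In Cd73P it was 4.96 (3.73 to 6.60) in wild type and 4.40 (2.34 to 8.27) in the CKO-labelled library. On the FPKM scale the ranges of the fractions did not overlap, whereas those of the genotypes overlapped within Cd73P. With 1 added to each FPKM the ratios were 0.875, 1.11, 1.87 and 1.16 in the order WT Cd73N, CKO-labelled Cd73N, WT Cd73P and CKO-labelled Cd73P, so that on this scale the CKO-labelled fractions were close to each other. Gad1 over Slc32a1 was 0.982, 2.04, 2.70 and 2.05 in the order WT Cd73N, CKO-labelled Cd73N, WT Cd73P and CKO-labelled Cd73P.

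The other genes of these pathways were taken from written lists. The counts for every list below stand beside the shares over all genes, which were 7.18% higher and 1.71% lower in CKO-labelled Cd73N. In Cd73P these shares were 2.26% and 2.39%. Among genes with an FPKM of at least 1 they were 11.6% and 2.87% in Cd73N and 4.31% and 4.54% in Cd73P. Among 20 further transcription factors known from amacrine cells, 4 were higher and 2 lower in CKO-labelled Cd73N, at a list median of 0.02 on the log2 scale, and 0 were higher and 5 lower in Cd73P, at a median of -0.07. Lhx9 went from 0.749 FPKM in wild type to 4.06 in CKO-labelled Cd73N and Etv1 from 2.36 to 6.14, while Isl1, shared with bipolar and ganglion cells, went from 217 to 109. In Cd73P the lower ones included Isl1, from 12.3 to 2.52 FPKM, and Six3, from 4.84 to 0.983. Ptf1a, which commits progenitors to the amacrine and horizontal fates, was at most 0.177 FPKM in any library.

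In WT Cd73N the median level was 23.8 FPKM for 11 genes of GABA transport, breakdown and the inhibitory synapse, of which 1 was below 1 FPKM. It was 9.14 FPKM for 14 GABA-A and glycine receptor subunit genes, of which 5 were below 1 FPKM. Of the 11 genes, 2 were higher and 0 lower in CKO-labelled Cd73N. These were the GABA transporter gene Slc6a11, from 57.0 to 115 FPKM, and the GABA transaminase gene Abat, from 14.4 to 28.6, both of which Müller glia also use. In Cd73P 1 of the 11 was lower, the amino acid transporter gene Slc38a1, from 13.9 to 3.52 FPKM. Of the 14 receptor subunit genes, 0 were higher and 3 lower in Cd73N, led by Gabrr1, a receptor subunit of bipolar cell terminals, from 199 to 106 FPKM. In Cd73P 1 was higher and 3 were lower, Gabrr1 again among them, from 8.03 to 1.70 FPKM.

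Of 6 glycine transport and cleavage genes, Gldc, the glycine decarboxylase gene, was higher in CKO-labelled Cd73N, from 4.51 to 19.0 FPKM, and Shmt2 was lower in Cd73P, from 17.6 to 10.8 FPKM. The neuronal glycine transporter gene Slc6a5 was at most 0.0877 FPKM. Of 7 cholinergic and starburst genes, 2 were higher and 1 lower in Cd73N, with Sox2 going from 12.1 to 55.3 FPKM, Megf10 from 3.21 to 13.0 and Fezf1 from 1.89 to 0.0686. Sox2, which Müller glia also express, was the one higher in Cd73P, from 0.551 to 2.02 FPKM. Sox2 and Fezf1 encode transcription factors and Megf10 a cell-surface receptor, and none of the 3 makes or carries acetylcholine.

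Of 16 genes of monoamine, peptide and other transmitters, 3 were higher in CKO-labelled Cd73N, namely the peptide genes Npy, from 8.13 to 35.7 FPKM, and Penk, from 0.625 to 2.76, and the vesicular glutamate transporter gene Slc17a8, from 0.347 to 1.39. In Cd73P Npy was listed at 0 in WT against 1.04 FPKM with the CKO label, and no fold is given. Of 10 other amacrine proteins, 3 were higher in Cd73N (C1ql2, Dab1 and C1ql1), and 3 were lower in Cd73P (Prox1, Cadps and C1ql1). The synaptic protein gene C1ql1 measured 2.13 FPKM in WT Cd73N, 4.93 in CKO-labelled Cd73N, 1.36 in WT Cd73P and 0.202 in CKO-labelled Cd73P, so that like Gad1 it passed the threshold upward in Cd73N and downward in Cd73P.

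**Figure D5:**
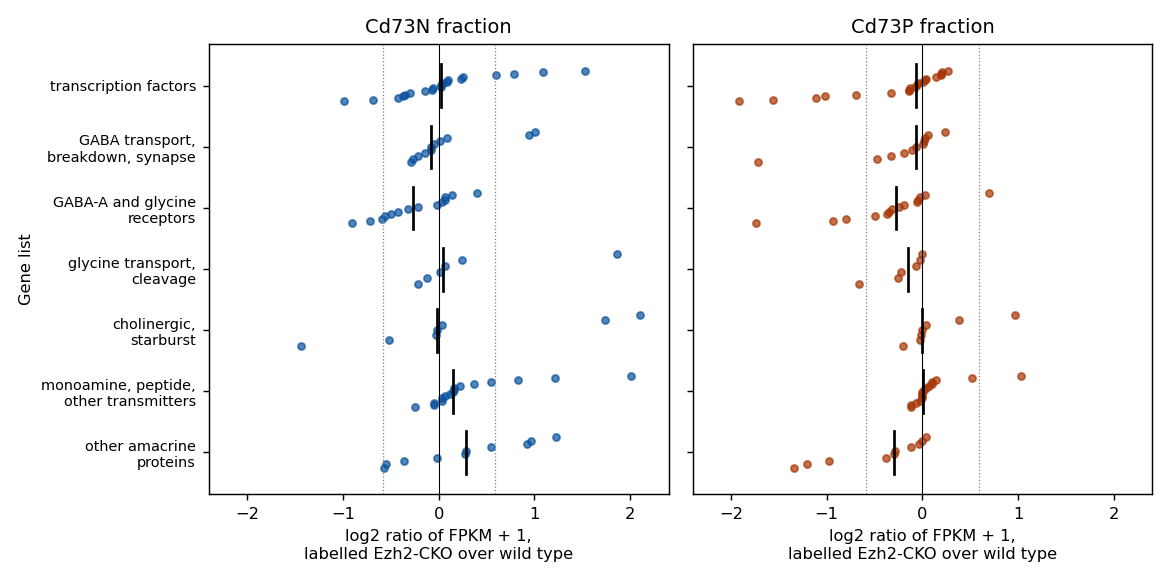
Log2 ratio of FPKM + 1, CKO-labelled library over wild type, for each gene of the 7 written lists (points) in Cd73N (left) and Cd73P (right), with the list median as a black bar and dotted lines at 1.5-fold. The list medians lie between -0.27 and 0.28 in Cd73N and between -0.29 and 0.01 in Cd73P, while single genes reach past 2 in Cd73N.

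Genes whose levels over the 4 libraries were most like those of a member were ranked among 9887 genes with an FPKM of at least 5 in 1 library, by the root mean square difference of log2(FPKM + 1) after centring each gene. This was done for Pax6 and Slc6a9, which reach that level. Nearest to Pax6 were Crot at a difference of 0.07, Tril at 0.10 and Col2a1 at 0.10, with Crot at 20.4, 64.1, 2.12 and 2.59 FPKM in the order WT Cd73N, CKO-labelled Cd73N, WT Cd73P and CKO-labelled Cd73P. Nearest to Slc6a9 were Nr3c1, Plekhm3 and Tmtc3, at differences of 0.04, 0.04 and 0.05. With 4 points a likeness of this kind is a description of these libraries.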

How the data were processed

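The genes and the gene lists were chosen with earlier results of these data known. Single-end reads of 36 bases were aligned by the authors to mouse build mm9 (TopHat 2.0.8b, at most 50 hits for a read), and Cufflinks 2.1.1 gave FPKM on RefSeq genes. The deposited FPKM values come with a lower bound, an upper bound and a status in 23021 rows for each library. Rows of 251 repeated symbols were summed, 730 small RNA symbols left out, and genes without status OK dropped from a comparison. Values were compared as log2(FPKM + 1) at 1.5-fold, without a test (Python 3.11.15, pandas 2.3.3), and scripts were tested on simulated data. Counting errors took the width of the bounds as 4 SE. They say nothing of animals or sorts, and 2673 to 3600 rows of a library exceeded their listed upper bound. Absolute depth is unknown. Listed starts were raised by 1 to match GENCODE. Named pathway genes were up to 3 per list and direction with the largest ratios, among those reaching an FPKM of 1 in either library. Some results are not reported here. Genes near 0, and the examples among the named, were chosen after their values were seen. Alternatives were pseudocounts of 0.1 and 5, scaling by the median ratio or the FPKM sum, and a 2-fold threshold. Also used were FPKM minimums of 1 and 10, met in either library of a pair, and no pseudocount.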

Additional observations from a re-analysis of the deposited data

Results flagged for a closer look

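Of 55 genes of the lists screened, 12 differed with genotype in opposite directions in the 2 fractions, each by more than 2 counting SE in both. The same held for 9.39% of 21689 genes, and for 14.6% of 13106 genes with an FPKM of at least 1 in 1 library. The genes screened were in part picked for large ratios. With 1 library per group, the difference between the fractions was not tested. Values are the log2 ratio of FPKM + 1 (CKO-labelled library over wild type) in Cd73P minus that in Cd73N. Among the 9 amacrine genes, 4 were of this kind: Gad1 differed by -1.59 (0.61 in Cd73N and -0.98 in Cd73P), Gad2 by -0.56, Slc6a9 by -0.58 and Tfap2b by -0.51. Of the pathway genes, the glycine decarboxylase gene Gldc differed by -2.08. The synaptic protein genes C1ql1 and C1ql2 differed by -1.89 and -1.51, and the adaptor gene Dab1 by -1.26. The transcription factor genes Six3 and Meis2 differed by -1.64 and -1.30, and the glycine receptor gene Glra2 by -0.59. Ezh2 itself differed by -0.69, being slightly higher in Cd73N and lower in Cd73P of the CKO-labelled libraries. In each of the 12 the Cd73N ratio was above 0 and the Cd73P ratio below 0. The share over all genes was counted for both directions together, so whether this direction is particular to the listed genes was not tested.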

How the results depend on the processing

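No paired analysis was possible because each group has 1 library, and for the same reason no library could be left out. A pseudocount or a filter cannot turn the sign of a single gene, so only the 2 scalings could. Of the 72 single-gene values under the scalings 0 turned and 12 moved by more than 2 counting SE, against 50 of 72 under the other pseudocounts. The counts past the threshold depended on the pseudocount, because most of the genes are near or below 1 FPKM. In Cd73N, the 2 genes higher in the CKO-labelled library became 1 (Pax6) with a pseudocount of 5, at a 2-fold threshold, and also at an FPKM of at least 10 (1 gene left) and without a pseudocount at an FPKM of at least 1 in both libraries (4 genes left), where Gad1 was dropped. The 0 lower became 1 (Calb2) with a pseudocount of 0.1 or none. The median of 0.26 became 0.45 with a pseudocount of 0.1, 0.0816 with 5, 1.59 at an FPKM of at least 10 and 0.48 without a pseudocount. In Cd73P, the 1 gene lower became 6 with a pseudocount of 0.1 (Tfap2a, Tfap2b, Gad1, Gad2, Slc32a1 and Calb2) and 0 with a pseudocount of 5, at a 2-fold threshold, at an FPKM of at least 10 or without a pseudocount, where Gad1 was left out. The median of -0.25 became -0.76 with a pseudocount of 0.1 and -0.0653 with 5. Without a pseudocount it was -0.0335, over the 2 genes left (Pax6 and Slc6a9), and an FPKM of at least 10 left 1 gene (Slc6a9). Between the fractions of wild type, 1 gene higher in Cd73P became 2 (Gad1 added) with a pseudocount of 0.1 and under both scalings, which move a ratio taken without a pseudocount by 0.34 and 0.42 there, by 0.27 and 0.21 between the CKO-labelled fractions and by at most 0.15 between genotypes, and move low genes by less on the log2(FPKM + 1) scale. The 3 lower became 2 (Gad2 lost) when scaled by the FPKM sum and at a 2-fold threshold, and 4 (Tfap2b added) with a pseudocount of 0.1. The median of -0.26 became -0.13 when scaled by the median ratio and -0.0985 when scaled by the FPKM sum. The 3 lower became 1 (Pax6) with a pseudocount of 5, and also at an FPKM of at least 10 or without a pseudocount, where the minimum left 2 genes and dropped Gad2 and Calb2, and the median of -0.26 became -0.56 with a pseudocount of 0.1 and without one and -0.68 at an FPKM of at least 1. Between the CKO-labelled fractions, the 6 lower became 1 (Pax6) under the same 3 settings, again with 2 genes left in the latter pair, and the median of -0.84 became -2.32 with a pseudocount of 0.1, -0.23 with 5, -1.20 at an FPKM of at least 1, -1.48 at 10 and -1.65 without a pseudocount. Those 6 became 7 (Tfap2a added) with a pseudocount of 0.1 and 4 (Tfap2b and Slc32a1 lost) at a 2-fold threshold. With 1 added to each FPKM, Gad1 over Gad2 in Cd73P became 1.87 in wild type and 1.16 in the CKO-labelled library.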
